A study of Mus musculus with 52 samples.

Results

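Mtap, Cdkn2a and Cdkn2b, neighbours on mouse chromosome 4, were followed in bulk RNA-seq of single KPC tumors together with Trp53, Cdkn1a, Mdm2 and Trp53i11 of the p53 pathway. These 7 of the 27525 genes in the deposited table were chosen by name from earlier results on the same tumors, so their differences between treatment groups are a description, and where a count of calls by the fit across all genes is printed for them it supports nothing. KPC tumors grew under the skin of syngeneic mice aged 8 to 10 weeks from KxPxCx cells, a single pancreatic cancer line. The line was derived from a mouse with the Trp53 LSL.R172H/+ allele under Pdx1-Cre, so all groups share this allele in the tumor cells, while the host cells of the tumor do not carry it. Control mice were untreated, ADU-S100 mice received 2 µg of this STING agonist into the tumor, anti-LTβR mice received 4 doses of 100 µg of the agonistic antibody, and combination mice received both. Each group held 8 tumors, all taken on day 14. Another 20 tumors of an experiment called ST#15 were used only to see whether the genes follow stromal markers there, because the labels of 15 of them contradict each other on treatment.

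Cdkn2a encodes a pair of tumor suppressors from separate first exons. Ink4a blocks the cyclin D kinases CDK4 and CDK6 and thereby keeps RB active, and Arf binds MDM2 and thereby protects p53 from degradation. Cdkn2b encodes Ink4b, a close relative of Ink4a. Mtap encodes methylthioadenosine phosphorylase, which returns the by-product of polyamine synthesis to methionine, and it is often lost together with CDKN2A when pancreatic cancers delete the locus. Trp53 encodes p53, Cdkn1a the CDK inhibitor p21 and Mdm2 the ubiquitin ligase that degrades p53. Both Cdkn1a and Mdm2 are classical p53 targets, and Trp53i11 (also called PIG11) was named as a p53-inducible gene.

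The start regions of the locus genes are shown because the readout counts 1 value per gene, and for Cdkn2a this value joins transcripts from both starts. Each window holds 250 bases before and 50 bases after an annotated start, from RefSeq on GRCm38.p6, on the strand of the gene. In capitals are the GC box GGGCGG, the CCAAT box CCAAT and the TATA box TATAAA, searched on both strands. The windows lie at chr4:89137120-89137419 on the plus strand for Mtap and, on the minus strand, at chr4:89294570-89294869 for the Arf start of Cdkn2a, chr4:89282143-89282442 for its Ink4a start and chr4:89310983-89311282 for Cdkn2b.
Mtap: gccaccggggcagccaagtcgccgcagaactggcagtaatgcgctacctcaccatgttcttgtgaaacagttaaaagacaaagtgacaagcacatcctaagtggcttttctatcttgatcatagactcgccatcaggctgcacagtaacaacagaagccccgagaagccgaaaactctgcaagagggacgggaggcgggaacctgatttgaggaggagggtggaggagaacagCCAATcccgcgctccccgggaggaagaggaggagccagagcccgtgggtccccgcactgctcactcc
Cdkn2a, Arf start: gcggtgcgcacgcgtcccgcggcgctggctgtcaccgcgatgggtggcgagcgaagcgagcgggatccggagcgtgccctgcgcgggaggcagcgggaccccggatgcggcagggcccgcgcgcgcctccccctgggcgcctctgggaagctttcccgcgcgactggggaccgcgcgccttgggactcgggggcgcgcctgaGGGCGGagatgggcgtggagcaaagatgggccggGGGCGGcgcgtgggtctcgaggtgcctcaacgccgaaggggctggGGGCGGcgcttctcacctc
Cdkn2a, Ink4a start: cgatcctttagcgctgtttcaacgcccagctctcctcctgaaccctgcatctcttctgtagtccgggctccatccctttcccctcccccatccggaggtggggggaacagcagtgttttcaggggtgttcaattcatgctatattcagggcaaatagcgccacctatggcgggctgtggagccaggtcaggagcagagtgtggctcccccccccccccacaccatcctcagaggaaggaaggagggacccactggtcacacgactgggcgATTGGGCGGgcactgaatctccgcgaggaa
Cdkn2b: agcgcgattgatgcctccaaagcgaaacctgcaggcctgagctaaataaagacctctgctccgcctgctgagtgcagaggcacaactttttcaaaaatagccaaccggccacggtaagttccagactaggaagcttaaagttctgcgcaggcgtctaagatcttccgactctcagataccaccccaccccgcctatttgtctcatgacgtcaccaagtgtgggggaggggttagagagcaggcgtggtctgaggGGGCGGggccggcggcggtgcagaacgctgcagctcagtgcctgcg
The Arf window held 3 GC boxes and was 77% GC, the Ink4a window held 1 GC box and 1 CCAAT box, the Cdkn2b window 1 GC box and the Mtap window 1 CCAAT box. The GC box occurred in 35.7% of 32851 RefSeq windows of this length, the CCAAT box in 37.4% and the TATA box, absent from these 4, in 13.6%. The p53 half-site motif occurred in 8.36% of windows. It was found 2 times in the upstream window of Cdkn1a at chr17:29090729-29091028, and 1 time each in those of Trp53 and Mdm2, and it matched in none of the locus windows or that of Trp53i11. These are letter matches and were not measured as bound sites.

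The values are normalized counts, in which the reads of each gene were scaled by a single factor for the whole library. Reads recovered from a second deposited table ranged from 12762453 to 15591986 in the 32 tumors (median 14932388.5). The tissue label was checked against marker lists. The summed level of 8 epithelial tumor cell markers ran from 16177 to 29313 in untreated tumors and from 6911 to 14945 in combination tumors, and 4 of the 7 tested were lower, led by the keratins Krt18 and Krt8. All 10 fibroblast stroma markers were higher in combination than in untreated tumors, with a summed level from 164876 to 600501 against 92841 to 145451, as were all 6 endothelial markers (2208 to 3177 against 1214 to 1824) and 5 of 6 leukocyte markers (17193 to 24963 against 13989 to 19108). No marker was at 0 in any tumor. Skeletal muscle markers varied widely between tumors, with a summed level from 4685 to 102813 in untreated and from 5481 to 296662 in combination tumors, and 0 of the 4 passed limma, an unadjusted p under 0.05, edgeR or DESeq2 between these groups.

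The locus genes were low in untreated tumors and highest in combination tumors. Mtap normalized counts ran from 97.6 to 131 in untreated tumors (median 106, mean 110.0 ± 13.1, SD, n = 8). They ran from 76.6 to 121 with ADU-S100 (median 97.4), from 94.5 to 134 with anti-LTβR (median 111) and from 175 to 279 with the combination (median 201, mean 207 ± 36.1). Every combination tumor lay above every tumor of the other groups, whose ranges overlapped one another. The share of all genes that separate the groups in this way is not given here, so nothing is read from separation for this gene or those below. The gene overlaps the antisense gene Gm12607, and whether counting used strand is not given in the sources used here. On the log2(value + 1) scale combination tumors differed from untreated ones by 0.90 (SE 0.10), against 0.05 (SE 0.09) for anti-LTβR and -0.21 (SE 0.11) for ADU-S100.

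Cdkn2a was the scarcest of the genes. Its normalized counts ran from 4.01 to 16.2 in untreated tumors (median 7.74, mean 8.77 ± 4.77, SD, n = 8) and from 2.01 to 17.8 with ADU-S100 (median 8.25). They ran from 7.80 to 26.5 with anti-LTβR (median 15.4) and from 20.7 to 62.6 with the combination (median 31.7, mean 35.3 ± 12.4). All 8 combination tumors lay above all untreated and ADU-S100 tumors, and 7 of the 8 above all anti-LTβR tumors. In whole reads this was 4 to 17 per untreated library and 21 to 65 per combination library, so single tumors carry a large counting error. The log2 difference from untreated tumors was 1.98 (SE 0.29) for the combination and 0.84 (SE 0.30) for anti-LTβR, and 4 of the 8 anti-LTβR tumors exceeded the highest untreated one. For ADU-S100 against untreated the gene was too scarce to enter the fit.

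Cdkn2b normalized counts ran from 17.7 to 33.1 in untreated tumors (median 26.4, mean 25.5 ± 5.88, SD, n = 8), from 10.7 to 30.6 with ADU-S100 (median 21.9) and from 15.3 to 33.6 with anti-LTβR (median 20.4). With the combination they ran from 41.4 to 66.5 (median 54.6, mean 52.98 ± 9.75), above every other tumor. The log2 difference from untreated tumors was 1.04 (SE 0.16) with the combination, -0.18 (SE 0.19) with anti-LTβR and -0.33 (SE 0.22) with ADU-S100.

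**Figure D1:**
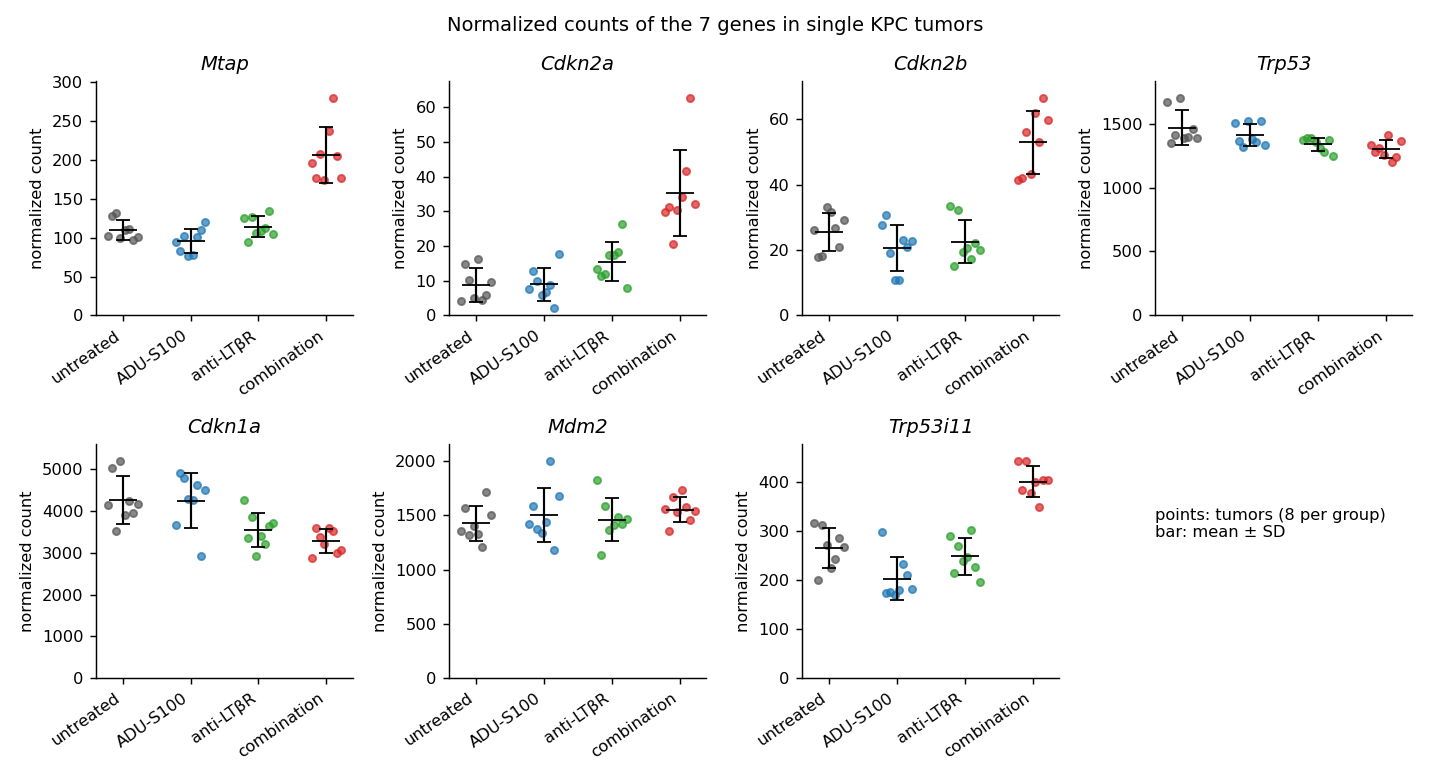
Normalized counts (linear axis from 0) of the 7 genes in the 4 treatment groups, with a point per tumor (8 per group) and bars for mean ± SD. For Mtap, Cdkn2b and Trp53i11 the combination tumors stand apart from all others, while the groups overlap for Trp53, Cdkn1a and Mdm2.

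Trp53 itself moved little. Its normalized counts ran from 1348 to 1698 in untreated tumors (median 1404, mean 1469 ± 136, SD, n = 8), from 1318 to 1522 with ADU-S100 (median 1371), from 1249 to 1386 with anti-LTβR (median 1363) and from 1201 to 1414 with the combination (median 1296). The log2 difference of the combination from untreated tumors was -0.17 (SE 0.05), and 6 of 8 combination tumors lay below all untreated ones. These reads do not separate the mutant allele of the tumor cells from the normal alleles of host cells.

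Among the genes downstream of p53, Cdkn1a was the most abundant of the set. It ran from 3519 to 5197 in untreated tumors (median 4160, mean 4271 ± 569.9, SD, n = 8), from 2927 to 4911 with ADU-S100 (median 4394), from 2934 to 4257 with anti-LTβR (median 3521) and from 2879 to 3605 with the combination (median 3287, mean 3280 ± 283). Its log2 difference from untreated tumors was -0.37 (SE 0.08) with the combination and -0.26 (SE 0.08) with anti-LTβR, against -0.01 (SE 0.10) with ADU-S100. The untreated and combination ranges overlapped in a narrow band, with 6 of 8 combination tumors below all untreated ones. Cdkn1a overlaps the antisense gene AC167363.2.

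Mdm2 overlapped in all groups, from 1207 to 1713 in untreated (median 1379), 1185 to 2000 with ADU-S100 (median 1429), 1131 to 1826 with anti-LTβR (median 1441) and 1355 to 1730 with the combination (median 1549). The log2 difference of the combination was 0.13 (SE 0.07). Trp53i11 was highest in combination tumors, like the locus genes, although within groups its r was 0.0639 with Mtap, -0.229 with Cdkn2a and 0.318 with Cdkn2b. It ran from 199.9 to 318 in untreated tumors (median 269.9, mean 265 ± 41.3, SD, n = 8), from 169.8 to 298 with ADU-S100 (median 181), from 196 to 302 with anti-LTβR (median 243) and from 349 to 443 with the combination (median 403, mean 401 ± 31.9). All 8 combination tumors lay above all others, and the log2 difference from untreated tumors was 0.61 (SE 0.09), against -0.39 (SE 0.12) for ADU-S100.

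Per kilobase of exon the order in untreated tumors was Cdkn1a at 1202 normalized counts per kb, Trp53 at 363, Mdm2 at 280.3, Trp53i11 at 71.9, Mtap at 34.1, Cdkn2b at 18.3 and Cdkn2a at 7.48. The ranges of Trp53 (333 to 419.8) and Mdm2 (237 to 337) touched, as did those of Cdkn2b (12.8 to 23.8) and Cdkn2a (3.42 to 13.9), and the other neighbours in this order did not overlap. In combination tumors the order was the same, and Cdkn2a reached 30.1 per kb beside 38.1 for Cdkn2b.

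In combination against untreated tumors 4 of the 7 genes were called higher and 2 lower at a false discovery rate (FDR) of 0.05, where 19.6% of the 16909 genes tested were called higher and 23.6% lower. Against anti-LTβR alone 4 were called higher (11.3% of all genes) and none lower (15.3%), and against ADU-S100 alone 4 higher (20.2%) and 2 lower (26%). With anti-LTβR against untreated 1 of 7, Cdkn1a, was called lower, where 15.3% of genes were called in either direction. This call and that of Trp53 against ADU-S100 were each made in 2 of 5 other settings and lost without the filter, with the replicate number as a block and in the libraries above 14000000 reads. With ADU-S100 0 of the 6 tested were called by limma, as were 0% of all 16613 genes, where 1316 were higher and 1092 lower at an unadjusted p under 0.05 and edgeR called 1 and DESeq2 52. Because the genes were chosen from these contrasts, nothing is read from the counts. All 5 comparisons share tumors with another of them.

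Whether both agents together differed from the sum of each was described by the interaction on the log2 scale. It was 1.05 (SE 0.15) for Mtap, 1.55 (SE 0.28) for Cdkn2b and 1.09 (SE 0.15) for Trp53i11, and 1.13 (SE 0.44) for Cdkn2a with its wide error. Cdkn2a passed the filter over all 4 groups but was too scarce to be tested with ADU-S100 against untreated, a difference that the interaction draws on. For Trp53, Cdkn1a and Mdm2 the interaction lay between -0.10 and 0.03. In all, 3 of the 7 were called higher (7.33% of 17649 genes) and none lower (11%).

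**Figure D2:**
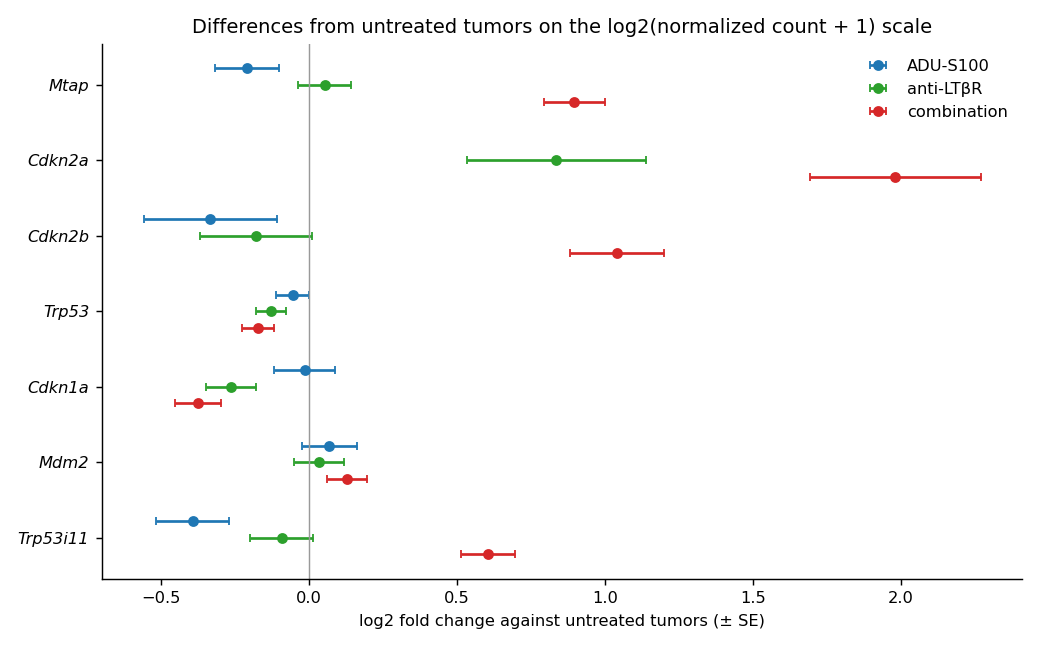
Log2 fold changes of the 7 genes against untreated tumors (x axis, points with SE bars, on the log2(normalized count + 1) scale) for ADU-S100, anti-LTβR and the combination. Cdkn2a with ADU-S100 has no point because it was too scarce to enter the fit. The combination differences of Mtap, Cdkn2b and Trp53i11 lie to the right of both single agents, and that of Cdkn2a to the right of anti-LTβR.

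The relation to stromal content was asked tumor by tumor within the treatment groups, which the choice of genes had not used. A fibroblast stroma score, the mean log2 level of 10 genes such as Col1a1, Dcn and Pdgfra, ran from 11.1 to 11.9 in untreated and from 12.0 to 13.5 in combination tumors without overlap. With the group means taken out, Mtap rose by 0.31 on the log2 scale per log2 unit of the score (SE 0.09, 95% interval 0.13 to 0.48, limma, Benjamini-Hochberg adjusted p = 0.0297). In these 32 tumors 4.66% of 17649 genes had a positive slope past the threshold. The call was lost when any of 5 tumors was left out (ADU-S100 replicates 4 and 8, anti-LTβR replicate 2, combination replicates 2 and 5), with adjusted p from 0.0596 to 0.0697, and the slope then stayed between 0.28 and 0.31. It was also lost with the replicate number as a block (slope 0.27, limma adjusted p = 0.215), with the score from summed values (0.22, adjusted p = 0.074), in the 25 libraries above 14000000 reads (0.35, adjusted p = 0.124) and with the leukocyte score added (0.24, adjusted p = 0.0615). Cdkn2a had a slope of 0.41 (SE 0.30, 95% interval -0.21 to 1.03, adjusted p = 0.405) and Cdkn2b one of 0.30 (SE 0.19, 95% interval -0.09 to 0.70, adjusted p = 0.326), so neither relation was resolved and neither interval excludes a slope as steep as that of Mtap.

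The same question put as a correlation gave a Pearson r of 0.566 for Mtap with the score over the 32 deviations from group means (Spearman rho 0.55, permutation p = 0.00284 and 0.00272, adjusted over 18 relations 0.017 and 0.0145). Without the 2 tumors farthest on the score r was 0.562. For Cdkn2a r was 0.25 (rho 0.285, permutation p = 0.199 and 0.133, adjusted 0.305 and 0.298) and for Cdkn2b 0.293 (rho 0.234, permutation p = 0.141 and 0.228, adjusted 0.282 and 0.373). Within single groups of 8, r for Mtap was 0.329 for the untreated tumors, 0.642 for ADU-S100, 0.739 for anti-LTβR and 0.504 for the combination, with adjusted exact permutation p-values from 0.142 to 0.54. Without the 2 tumors farthest on the score these became -0.043, 0.554, 0.409 and 0.171, so the values for untreated, anti-LTβR and combination tumors rest largely on those tumors, while that for ADU-S100 moved little. For Cdkn2a r ran from -0.133 in combination to 0.718 in untreated tumors, and for Cdkn2b from -0.516 in untreated to 0.595 in anti-LTβR tumors, none past the threshold after adjustment in exact permutation tests.

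**Figure D3:**
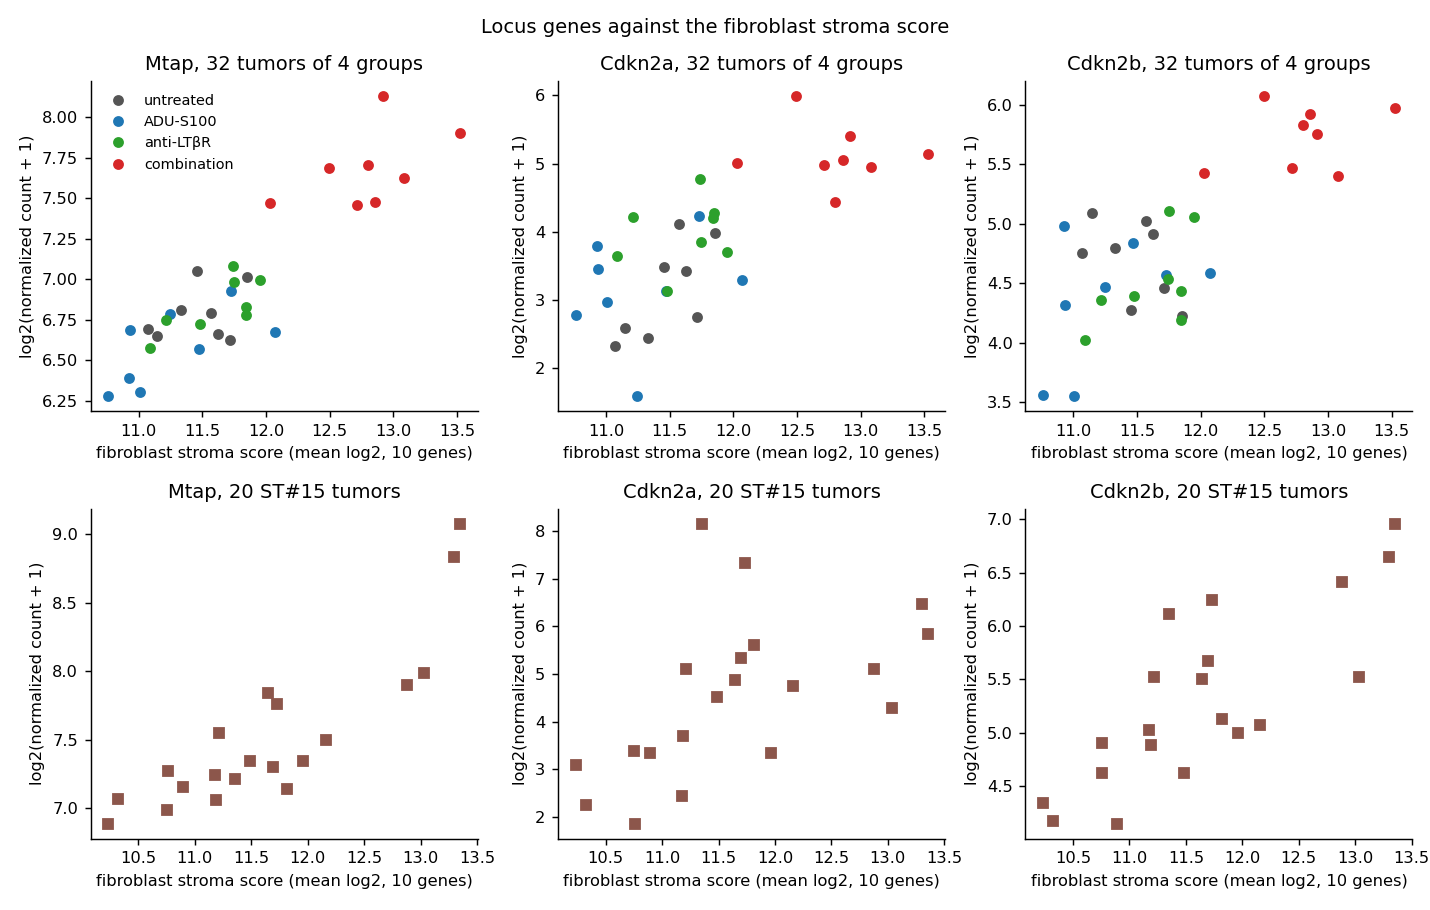
Log2(normalized count + 1) of Mtap, Cdkn2a and Cdkn2b (y axis) against the fibroblast stroma score (x axis) in the 32 tumors of 4 groups (upper panels, colored by group) and the 20 ST#15 tumors (lower panels). Mtap climbs with the score in both sets, while Cdkn2a scatters more, with 2 ST#15 tumors far above the rest at a middling score.

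Mtap also followed other non-tumor compartments. Its slope was 0.68 on the endothelial score of 6 genes such as Pecam1 and Cdh5 (SE 0.12, limma adjusted p = 0.00202, 2.56% of genes positive) and past the threshold without each of the 32 tumors in turn (0.62 to 0.74). On the leukocyte score it was 0.83 (SE 0.24, adjusted p = 0.0366, 4.17% of genes positive), and on the epithelial tumor cell score -0.17 (SE 0.11, adjusted p = 0.36). As a description, r with the endothelial score was 0.75, as high as or above that of all but 0.164% of genes, and with the fibroblast score 0.566, a level that 3.61% of genes reached. The fibroblast and endothelial scores moved together within groups (r = 0.748). With both scores in a joint fit, the slope of Mtap was 0.0061 (SE 0.11, limma adjusted p = 0.984) on the fibroblast score and 0.67 (SE 0.19, adjusted p = 0.158) on the endothelial score. The leukocyte slope of Mtap was 0.39 (SE 0.22, limma adjusted p = 0.39) with the endothelial score added and 0.65 (SE 0.23, adjusted p = 0.0701) with the fibroblast score added, past the threshold in neither. These joint fits were added after the data were seen.

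Mdm2, which differed little between the groups, followed the fibroblast score within them. Its slope was 0.33 (SE 0.07, 95% interval 0.19 to 0.46, limma adjusted p = 0.00145) and past the threshold without each of the 32 tumors in turn, and it was 0.44 (SE 0.10, adjusted p = 0.00756) with the endothelial score added. Trp53 and Trp53i11 instead rose with the epithelial tumor cell score, by 0.15 (SE 0.05, limma adjusted p = 0.0247) and 0.34 (SE 0.10, adjusted p = 0.0222), where 7.89% of genes had a positive slope. The epithelial score fell as skeletal muscle markers rose (r = -0.709 within groups). With the muscle score in the fit these slopes were 0.08 (SE 0.06, adjusted p = 0.593) and 0.14 (SE 0.14, adjusted p = 0.683). All 4 keratinocyte (skin) markers, such as Krt5, and 4 of 6 proliferation markers also rose with the epithelial score. Within groups r with the keratinocyte score was 0.376 for Trp53 and 0.369 for Trp53i11, and with the proliferation score 0.559 and 0.475. The part of skin or proliferation in the epithelial slopes was not tested. The fibroblast slopes of Mtap and Mdm2 were past the threshold with the muscle score in the fit, at 0.38 (SE 0.09, limma adjusted p = 0.00435) and 0.31 (SE 0.07, adjusted p = 0.00405), and that of Cdkn2a was then 0.72 (SE 0.27, adjusted p = 0.0989). Cdkn1a followed none of the 4 scores. In bulk tumors more cells of a type and more RNA per cell cannot be told apart.

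**Figure D4:**
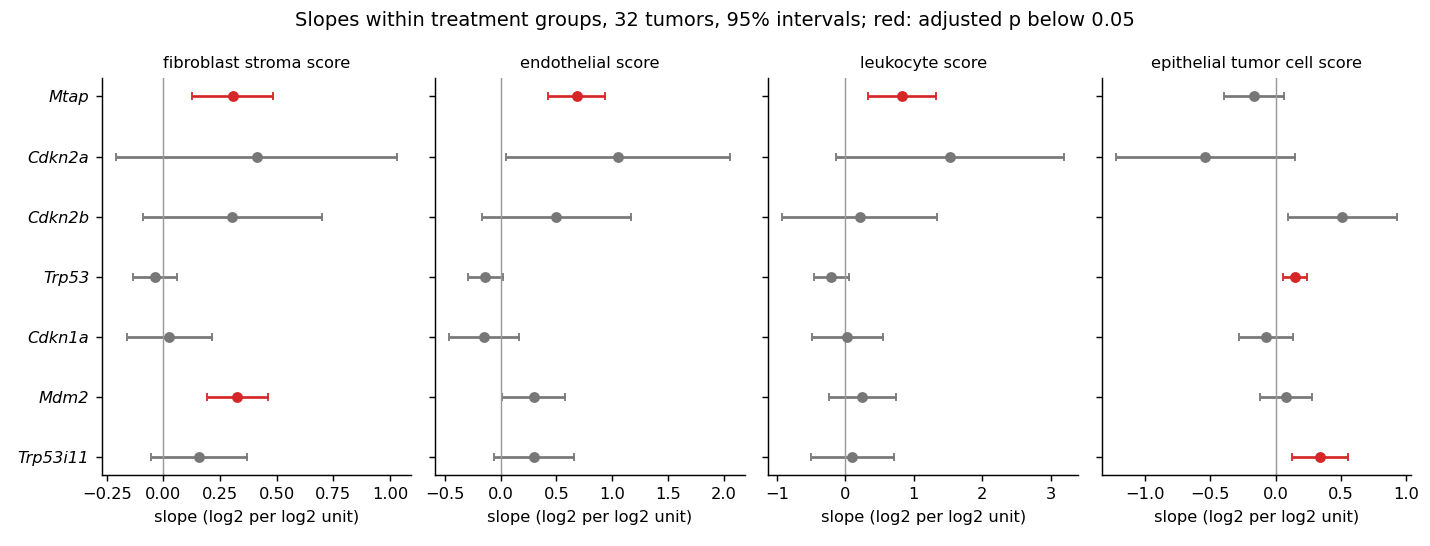
Slopes of the 7 genes on 4 marker scores within treatment groups (x axes, log2 per log2 unit, points with 95% intervals, 32 tumors), with red for an adjusted p below 0.05. Mtap is red for fibroblast, endothelial and leukocyte scores, Mdm2 for the fibroblast score, and Trp53 and Trp53i11 for the epithelial score.

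The combination and untreated tumors were also compared at an equal score, as a description. For Mtap it was 0.90 on the log2 scale without a score, 0.49 (SE 0.15) at equal fibroblast score and 0.26 (SE 0.14) at equal endothelial score. For Cdkn2a it was 1.43 (SE 0.51) and 1.00 (SE 0.54), and for Cdkn2b 0.63 (SE 0.32) and 0.58 (SE 0.36). For Trp53i11 it was 0.40 (SE 0.17) and 0.33 (SE 0.19). For Mdm2 it was -0.31 (SE 0.11) and -0.15 (SE 0.15), against 0.13 without a score. For Trp53 it was -0.12 (SE 0.08) and -0.05 (SE 0.08), and for Cdkn1a -0.41 (SE 0.15) and -0.24 (SE 0.17). At equal muscle score the differences hardly moved, at 0.87 (SE 0.11) for Mtap, 1.78 (SE 0.29) for Cdkn2a and 1.15 (SE 0.20) for Cdkn2b. Since the fibroblast and endothelial scores of these groups do not overlap, the values at equal score extend the slope beyond the tumors measured, and treatment and stromal content cannot be told apart between the groups.

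The relation was also read in the ST#15 tumors, which the choice of genes had not used. Mtap ran from 117 to 539 normalized counts in these 20 tumors (median 159), Cdkn2a from 2.62 to 283 (median 23.9) and Cdkn2b from 16.7 to 123 (median 33.3), in a table normalized separately. Over all 20 tumors, with no group taken out, r with the fibroblast score was 0.86 for Mtap (rho 0.832, permutation p = 1e-05, the smallest that 100000 permutations give, and 4e-05, adjusted 0.00018 and 0.00072). For Cdkn2b r was 0.796 (rho 0.777, permutation p = 4e-05 and 0.00011, adjusted 0.00036 and 0.00099). For Cdkn2a r was 0.528 (rho 0.636, permutation p = 0.0165 and 0.00322, adjusted 0.0743 and 0.0145), so only its rank relation passed. As a description, 0.965% of 15858 genes reached the r of Mtap with this score, 2.52% that of Cdkn2b and 14.4% that of Cdkn2a. Without the 2 tumors farthest on the score r was 0.802 for Mtap, 0.669 for Cdkn2b and 0.437 for Cdkn2a. With the epithelial tumor cell score r was 0.655 for Mtap, 0.589 for Cdkn2a and 0.808 for Cdkn2b in the same 20 tumors, as a description. It was 0.722, 0.567 and 0.804 in the 18 tumors left without the pair described next, so in ST#15 the genes rose with tumor cell markers as well. In the 32 tumors the matching r within groups was -0.276, -0.291 and 0.44. The slope of Cdkn2b on that score was 0.51 there (SE 0.20, limma adjusted p = 0.0906), short of the threshold. The library titles carry 1 of 4 letters, and the labels settle the treatment only for letter D, as combination. With the mean of each letter taken out and permutation within letters, r with the fibroblast score was 0.845 for Mtap (rho 0.872, permutation p = 1e-05 and 6e-05, adjusted over 6 relations 6e-05 and 0.00036) and 0.77 for Cdkn2b (rho 0.802, permutation p = 0.00094 and 0.0006, adjusted 0.00141 and 0.0012). For Cdkn2a r was then 0.271 (rho 0.283, permutation p = 0.321 and 0.268, adjusted the same) and did not pass within letters. Without the 2 tumors farthest on the score these r were 0.81, 0.694 and 0.0998.

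A pair of ST#15 libraries stood apart. Replicate D3 had 8716257 reads, against at least 16006599 in the rest, and in it and in replicate C3 a read was worth 3.78 and 1.38 normalized counts, against less than 1 elsewhere. They also held the 2 highest Cdkn2a values, 283 and 160.3. Without both, r with the fibroblast score was 0.862 for Mtap, 0.749 for Cdkn2a and 0.868 for Cdkn2b (18 tumors). Within letters it was 0.834 for Mtap, 0.841 for Cdkn2b and 0.62 for Cdkn2a, the last with rho 0.509, permutation p = 0.0248 and 0.0612 and adjusted 0.0297 and 0.0735, so the Cdkn2a relation depends on these 2 libraries. With the endothelial score r went from 0.899 to 0.929 for Mtap and from 0.307 to 0.718 for Cdkn2a, and the relation of Cdkn2a to the leukocyte score went from 0.776 to 0.633. For Mdm2 r with the fibroblast score was -0.152 in all 20 tumors and -0.571 in the 18, opposite in sign to its slope in the 32 tumors. The 5 ST#15 tumors whose labels all say combination, D3 included, ran from 139.971 to 539 for Mtap and from 33.2 to 283 for Cdkn2a. Trp53 and Cdkn1a were not analysed here in ST#15. The values within letters and those without D3 and C3 were chosen after the data were seen.

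The genes most like Mtap across the 32 tumors, by Pearson r of deviations from group means over 17649 genes, were Cd300a (r = 0.792), Tie1 (0.776), Cyp27a1 (0.768), Frmd4b (0.768) and Gng2 (0.767). Tie1, an endothelial receptor tyrosine kinase, is in the endothelial score, and Cd300a is a receptor of myeloid and other leukocytes. Those most like Cdkn2a were Lrrn2 (0.792), Alx4 (0.715), Hoxc9 (0.715), Fbxo17 (0.707) and Afap1l1 (0.705), where Alx4 and Hoxc9 encode homeobox transcription factors. The genes of the locus were not close to one another by this measure, with r of 0.302 between Mtap and Cdkn2a, 0.314 between Mtap and Cdkn2b and 0.112 between Cdkn2a and Cdkn2b. With the mural score of 6 genes such as Rgs5 and Acta2, markers of pericytes and smooth muscle, r was 0.644 for Cdkn2a and 0.448 for Mtap, as a description. The mural list holds Des, which skeletal muscle also expresses and which ran from 356 to 5298 normalized counts in untreated tumors. With the skeletal muscle score r was 0.439 for Cdkn2a and 0.192 for Mtap, and the part of muscle in the mural values was not tested.

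Around the locus, other genes moved in both directions. The GENCODE annotation of GRCm38, the build of the genome in the study's methods where the processing notes name mm39, places Mtap (ENSMUSG00000062937) at chr4:89137122-89181081, Cdkn2a (ENSMUSG00000044303) at chr4:89274471-89294653 and Cdkn2b (ENSMUSG00000073802) at chr4:89306299-89311039. Of 16 other protein-coding genes within 2 Mb with a row in the table, 8 passed the filter. In combination against untreated tumors, where 19.6% of all genes rose and 23.6% fell, 2 of these 8 rose, Hacd4 by 0.75 on the log2 scale (SE 0.14, limma adjusted p = 0.000582) and Focad by 0.26 (SE 0.09, adjusted p = 0.0223). Another 4 were lower, Klhl9 at -0.36 (SE 0.08, adjusted p = 0.00145), Mllt3 at -0.33 (SE 0.10, adjusted p = 0.0106), Dmrta1 at -0.70 (SE 0.16, adjusted p = 0.00238) and Gm13285 at -0.80 (SE 0.15, adjusted p = 0.000457). Dmrta1, a DMRT-family transcription factor gene 384.8 kb beyond Cdkn2a, thus changed in the direction opposite to the locus genes. Gm13285 lies in a family of near-identical interferon genes, whose reads may be shared. Klhl9, an adaptor of the CUL3 ubiquitin ligase, also had a negative slope on the fibroblast score within groups (-0.30, SE 0.06, limma adjusted p = 0.000646), as had Mllt3 (-0.24, SE 0.07, adjusted p = 0.0196) and Gm13285 (-0.54, SE 0.15, adjusted p = 0.0262), where 2.5% of all genes had one. Dmrta1 did not (0.06, SE 0.17, adjusted p = 0.85).

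**Figure D5:**
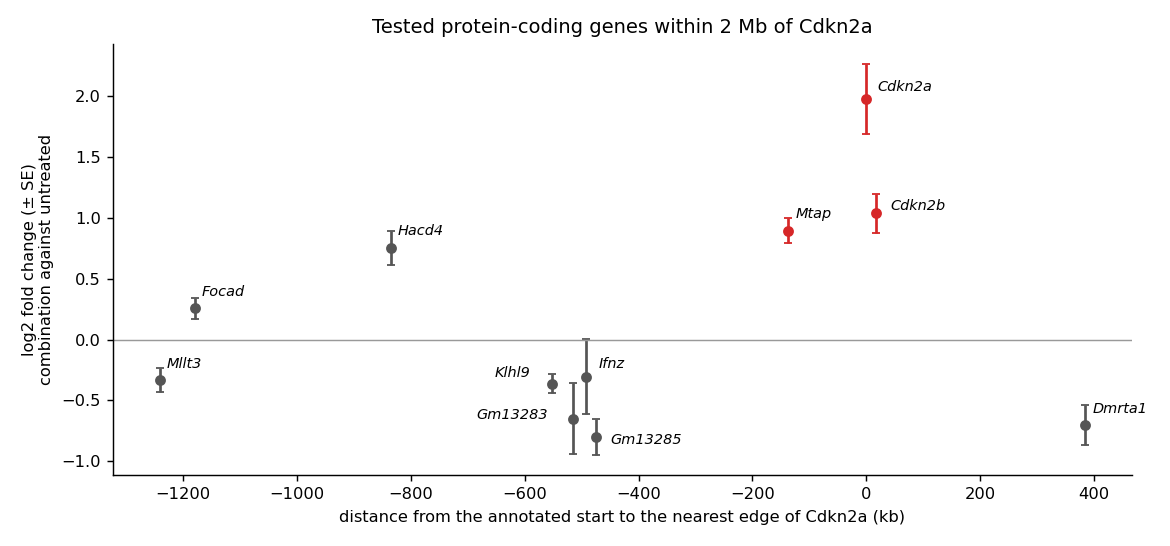
Log2 fold change (y axis, with SE bars) in combination against untreated tumors of the 11 tested protein-coding genes within 2 Mb of Cdkn2a, by the distance of their start from the nearest edge of Cdkn2a (x axis, kb), with Mtap, Cdkn2a and Cdkn2b in red. Genes on both sides of the locus lie below 0, and Hacd4 and Focad lie above it.

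Pdx1, whose promoter drives Cre in the KPC model, and the pancreatic cancer suppressor Smad4 both fell in combination against untreated tumors, where 23.6% of all genes did. Pdx1, a pancreatic transcription factor, went from 359.6 ± 27.6 to 263 ± 41.1 normalized counts (SD, n = 8 each, log2 difference -0.46, SE 0.09, limma adjusted p = 0.000627) and Smad4, the mediator of TGF-β signaling, from 1297 ± 48.7 to 1127 ± 99.8 (-0.21, SE 0.05, adjusted p = 0.00438). Neither passed with either agent alone, where limma called 0 of 16613 genes with ADU-S100. With ADU-S100 Pdx1 stood at 0.04 (SE 0.10) and Smad4 at 0.14 (SE 0.03), the latter opposite in sign to the combination. The interactions of Pdx1 and Smad4 were -0.50 and -0.32 (limma adjusted p = 0.0194 and 0.000709), where 11% of all genes were called lower. The fall of the summed epithelial markers given above, in which all called markers were keratins, went along, and its part in these differences was not tested.

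The p53 program was mixed. Of 27 other p53 targets, all of which passed the filter, 9 rose and 7 fell in combination against untreated tumors, where 19.6% and 23.6% of all genes did, with a median log2 difference of 0.09 against -0.02 over all genes. The pro-apoptotic BH3-only genes Pmaip1 (Noxa) and Bbc3 (Puma) fell by 0.84 (SE 0.13, limma adjusted p = 0.000152) and 0.64 (SE 0.11, adjusted p = 0.000365). Dram1, an autophagy regulator, rose by 0.75 (SE 0.13, adjusted p = 0.000213), the stress-induced Sesn1 by 0.46 (SE 0.09, adjusted p = 0.000701) and the spindle gene Psrc1 by 1.09 (SE 0.19, adjusted p = 0.000362). Pmaip1 went from 784 ± 144 to 441 ± 92.3 normalized counts and Dram1 from 631 ± 128 to 1066 ± 210.4 (SD, n = 8 each). With anti-LTβR alone 4 of 27 rose and 2 fell, where 7.21% and 8.1% of all genes did, the falling ones being Pmaip1 (-0.44, SE 0.10, adjusted p = 0.0133) and Bbc3 (-0.43, SE 0.12, adjusted p = 0.0303). These 6 calls numbered 3 without the filter, 3 with the replicate block and 1 in the libraries above 14000000 reads. With ADU-S100 0 of 27 passed in limma, and 0 of the 25 with recovered reads in edgeR or DESeq2. At an unadjusted p under 0.05 in limma 6 of 27 were higher and 1 lower, where 1316 and 1092 of 16613 genes were. Against anti-LTβR the combination had 5 higher and 7 lower, where 11.3% and 15.3% of all genes were, and these 12 calls numbered 1 in the libraries above 14000000 reads and 7 in a joint fit of the 4 groups. Against ADU-S100 it had 6 higher and 7 lower, near the 20.2% and 26% of all genes. The interaction was past the threshold for 1 higher, Dram1 (0.62, SE 0.14, adjusted p = 0.00268), and 4 lower, where 7.33% and 11% of all genes were, and the 5 calls numbered 3 in the libraries above 14000000 reads. Only Psrc1 also passed a fold change of 2 in combination against untreated tumors.

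Within groups, 9 of the 27 targets fell and 2 rose with the epithelial tumor cell score, where 7.77% and 7.89% of all genes did. The median slope was -0.19 over the list and 0.02 over all genes. With the muscle score in the fit, 0 fell and 1 rose in limma (2 and 2 at an unadjusted p under 0.05), where 46 and 207 of 17649 genes did, and the median slope over the list was -0.12. Of 7 regulators and relatives of p53, 0 passed in limma, edgeR or DESeq2 in combination against untreated tumors (1 at an unadjusted p under 0.05), with a median log2 difference of 0.09. Chek2, a kinase that phosphorylates p53, stood at 0.24 (SE 0.11, adjusted p = 0.0863) and Mdm4, the partner of Mdm2, at 0.15 (SE 0.07, adjusted p = 0.106).

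Of 13 further CDK inhibitors and genes of the RB pathway, 2 rose and 3 fell in combination against untreated tumors, shares near the 19.6% and 23.6% of all genes. Cdkn1c, which encodes the CDK inhibitor p57, rose from 102 ± 41.3 to 281 ± 105 normalized counts (SD, n = 8 each, log2 difference 1.45, SE 0.23, limma adjusted p = 0.000155), and E2f1, a transcription factor held back by RB, rose by 0.41 (SE 0.06, adjusted p = 0.000141). Among the D cyclins and their kinases, Ccnd1 was lower at -0.44 (SE 0.07, limma adjusted p = 0.000235), Ccnd2 at -0.25 (SE 0.06, adjusted p = 0.00312) and Cdk6 at -0.20 (SE 0.07, adjusted p = 0.0279). Cdk4 at -0.15 (SE 0.07, limma adjusted p = 0.102) and Ccnd3 at 0.01 (SE 0.09, adjusted p = 0.948) did not pass. The median log2 difference of the list was 0.01 against -0.02 over all genes. Of 6 proliferation markers 0 passed in limma, edgeR, DESeq2 or at an unadjusted p under 0.05, with Mki67 at 0.19 (SE 0.12, limma adjusted p = 0.207).

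Of 11 genes of methionine salvage and polyamine synthesis other than Mtap, 0 rose (also 0 at an unadjusted p under 0.05) and 4 fell in limma, where 19.6% and 23.6% of all genes did, with a median log2 difference of -0.07 against -0.02 over all genes. Of the 9 with recovered reads edgeR called 2 and DESeq2 4. Prmt5, the arginine methyltransferase that the substrate of MTAP inhibits, fell by 0.33 (SE 0.06, limma adjusted p = 0.000246), from 1061 ± 78.8 to 846 ± 64.9 normalized counts (SD, n = 8 each). Enoph1 and Apip, which act after MTAP in the salvage of methionine, fell by 0.21 (SE 0.07, adjusted p = 0.0233) and 0.25 (SE 0.09, adjusted p = 0.041). The spermine synthase gene Sms was at -0.28 (SE 0.10, adjusted p = 0.0362), and Odc1, which starts polyamine synthesis, at -0.20 (SE 0.08, adjusted p = 0.0577) did not pass.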

How the data were processed

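Total RNA of single subcutaneous KPC tumors was sequenced as poly(A) libraries. The submitters' processing notes name cutadapt 1.9, HISAT2, StringTie, DESeq2, edgeR, Partek and STAR and the build mm39. The study's methods map mouse tumor reads with HISAT2 to an Ensembl genome of GRCm38 and assemble them with StringTie, while the table of 32 libraries bears the name of Partek. Which steps and build lie behind each table is not given in the sources used here. The authors deposited a signal for 32 libraries, in which the reads of each gene were scaled by a single factor for the whole library, and a larger table of the same kind for 52. In the larger table each value is the worth of 1 read times a whole number (100% whole, tolerance 0.02 steps), which gave reads for edgeR 4.0.16 and DESeq2 1.42.0 as alternatives. Trp53 and Cdkn1a have no such reads here. Per-sample columns not used number 0, and a table of the authors' own gene set enrichment was not used.

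Log2(value + 1), with a pseudocount of 1, was fitted with limma 3.58.1 in R 4.3.3 (trend), after filterByExpr with a count minimum of 10, on the 16 libraries of each comparison or all 32 for the interaction and for slopes on marker scores with group as a term. Adjusted p-values are Benjamini-Hochberg over all genes tested, with an FDR threshold of 0.05. A fold change on this scale understates the change of low genes. The members and lists were chosen with earlier results of these data known. Named were all 7 genes, up to 5 genes per list with the smallest adjusted p in combination against untreated tumors, 5 genes most like Mtap and Cdkn2a, and protein-coding genes within 2 Mb. Cdk4, Ccnd3 and Des were named after their values were seen. Correlations were tested by two-sided permutation, exact in groups of 8 and with 100000 shuffles otherwise. Replicates are separate tumors grown from 1 cell line, so p-values measure the spread between tumors. The legend of the paper's bulk RNA-seq figure mentions both a single experiment and combined independent experiments. Whether the tumors of a group come from 1 experiment is not settled here, and the fits hold no such term. The tests were tried on simulated data. A further gene of the model is not reported here.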

Additional observations from a re-analysis of the deposited data

Results flagged for a closer look

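The interaction of the agents, the part of the combination difference beyond the sum of ADU-S100 and anti-LTβR on the log2 scale, is listed for Mtap (1.05), Cdkn2b (1.55) and Trp53i11 (1.09) because its adjusted p in limma was below 0.05. These genes were chosen from the same contrasts, so the values are a description and nothing is concluded from them. In 28 groups of 8 tumors (7 genes, 4 groups) 0 tumors stood apart from the rest by Dixon's criterion, which chance meets in about 5% of groups.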

How the results depend on the processing

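In combination against untreated tumors the log2 fold changes of Mtap and Cdkn2a ranged from 0.83 to 0.93 and from 1.86 to 2.12 without each of the 16 libraries in turn, which supports nothing because the genes were chosen from this contrast. The slope of Mtap on the fibroblast score fell short of the threshold with the score from summed values (0.22), with only the 25 libraries above 14000000 reads (0.35), with the leukocyte score added (0.24) and with the endothelial score added (0.0061, chosen after seeing the data), and ranged from 0.28 to 0.35 without each library. That of Cdkn2a passed without the group term (1.07), turned with the endothelial score added (-0.13) and ranged from 0.29 to 0.50 without each library. Genes following the score numbered 839 with the short list, 322 with the deeper libraries, 1923 with the epithelial score added and 8918 without the group term. The p53 targets called at a fold change of 2 numbered 1 in combination against untreated and 0 in each other comparison. In anti-LTβR against untreated they numbered 3 without the filter and 1 with the deeper libraries, in combination against anti-LTβR 1 with the deeper libraries and 7 in a joint fit of 4 groups, and in the interaction 3 with the deeper libraries. Fewer libraries enter the deeper set, and other causes were not tested. The main counts were 1264 genes, 16, 6, 12 and 5 targets.

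The labels do not name the mouse of a tumor or say that replicate numbers pair the tumors, and the main fits did not pair them. Same-numbered tumors of the combination and untreated groups correlated at 0.018 on average (lowest -0.508). The average ran up to 0.186 for ADU-S100 against untreated, with 6 of 8 pairs over 0.1, and 0.173 for combination against anti-LTβR, with 5 of 8, and in none of the 5 comparisons did every pair exceed 0.1. With the replicate block the slope of Mtap was 0.27 and past no threshold (adjusted p = 0.215 in limma), genes following the score numbered 491, p53 targets in anti-LTβR against untreated 3, and the log2 fold changes of Mtap and Cdkn2a 0.90 and 1.98. Cdkn2a, at 2 to 18 reads in untreated and ADU-S100 libraries, is limited by depth.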
